A study of Mus musculus with 2 samples.

Results

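The wide PHLPP1 regions are stretches of the mouse genome at least 1 kb (1000 bp) long in which the authors' peak caller found enriched signal for the phosphatase PHLPP1. They were chosen by length alone, from the autosomal rows of 2 peak lists, 1 per library. A row is 1 called peak, and its width is its end minus its start. The untreated list held 2202 such rows of 165089 autosomal rows, a share of 1.33% (95% interval 1.28 to 1.39%, exact Clopper-Pearson). The IL-4 list held 4690 of 225427, a share of 2.08% (2.02 to 2.14%). Rows that overlapped between the lists were merged, which gave 5355 wide regions, each named below by its nearest protein-coding gene. Since width chose them, and since fold, pileup and q came from the same peak call, all these measures are given as a description, with no test.

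The libraries came from primary alveolar macrophages of wild-type mice, the resident macrophages of the lung airspaces, taken from bronchoalveolar lavage fluid. Each group had 1 library, so no difference below has a replicate check. The untreated cells are labelled UT. The other group is labelled IL-4, and per the labels' protocols it was kept for 4 h with the cytokine interleukin-4 (IL-4), dosed at 20 ng/ml. The protocol text of both libraries describes the IL-4 stimulation, and the treatment label separates them. The mice's strain and age, whether animals were pooled, and a control antibody are not stated in the sources used here. CUT&Tag was used: the antibody against PHLPP1, once on its target in opened cells, draws in a transposase that inserts sequencing adapters into the DNA beside it.

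PHLPP1 is known for removing phosphate from AKT, the kinase that carries signals of the PI3K pathway, and for acting on other kinases. It has also been reported in the nucleus, with histones among its described substrates. PHLPP1 has no known DNA-binding domain. IL-4 acts through JAK kinases, STAT6 and the PI3K pathway, and drives the alternative activation of macrophages. Promoters of mammalian genes often lie in CpG islands, stretches rich in G, C and the dinucleotide CpG, whose best known short motif is GGGCGG, the GC box that SP-family factors bind.

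The sequences of 5 promoters are shown because GC boxes and CpG were frequent in the promoters that wide regions covered. Each is the 250 bases before a transcription start in RefSeq (build GRCm38.p6, which mm10 is based on), written in the direction of transcription. Capitals mark GGGCGG or its reverse complement CCGCCC. Amz2, Gpr157 and Aasdhppt are, among promoters in the RefSeq table, which is not complete and has none for Malt1, those under regions wide in both libraries with the highest untreated fold. Cebpb and Socs1 were chosen after their values were seen: a lineage factor with nearly equal widths in the libraries, and an IL-4-induced inhibitor of JAK kinases with the highest pileup ratio among gene-end regions wide in both. The Amz2 sequence lies at chr11:109425696-109425945 on the plus strand and holds 6 matches.
Amz2: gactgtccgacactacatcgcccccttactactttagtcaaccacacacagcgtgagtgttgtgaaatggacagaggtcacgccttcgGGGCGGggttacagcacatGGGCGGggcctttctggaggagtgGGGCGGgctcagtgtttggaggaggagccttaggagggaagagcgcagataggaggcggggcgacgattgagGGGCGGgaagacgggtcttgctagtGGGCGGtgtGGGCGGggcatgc
The Gpr157 sequence lies at chr4:150087253-150087502 on the plus strand and holds 7 matches.
Gpr157: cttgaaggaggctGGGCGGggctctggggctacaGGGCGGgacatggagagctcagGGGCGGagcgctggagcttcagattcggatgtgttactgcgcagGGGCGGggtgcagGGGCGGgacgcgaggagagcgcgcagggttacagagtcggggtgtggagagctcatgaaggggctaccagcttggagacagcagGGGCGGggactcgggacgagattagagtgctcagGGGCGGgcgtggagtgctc
The Aasdhppt sequence lies at chr9:4309495-4309744 on the minus strand and holds 2 matches.
Aasdhppt: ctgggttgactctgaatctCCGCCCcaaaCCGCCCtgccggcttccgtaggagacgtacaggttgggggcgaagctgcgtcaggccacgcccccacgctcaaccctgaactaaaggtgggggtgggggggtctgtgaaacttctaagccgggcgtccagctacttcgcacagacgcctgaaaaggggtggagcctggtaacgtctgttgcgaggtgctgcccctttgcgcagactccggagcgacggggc
The Cebpb sequence lies at chr2:167688665-167688914 on the plus strand and holds 4 matches.
Cebpb: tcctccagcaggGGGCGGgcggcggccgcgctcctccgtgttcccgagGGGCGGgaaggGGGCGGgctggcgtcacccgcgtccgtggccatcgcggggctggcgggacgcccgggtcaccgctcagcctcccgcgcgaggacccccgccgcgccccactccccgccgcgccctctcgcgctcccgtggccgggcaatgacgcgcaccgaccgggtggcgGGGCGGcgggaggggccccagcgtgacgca
The Socs1 sequence lies at chr16:10785537-10785786 on the minus strand and holds 2 matches.
Socs1: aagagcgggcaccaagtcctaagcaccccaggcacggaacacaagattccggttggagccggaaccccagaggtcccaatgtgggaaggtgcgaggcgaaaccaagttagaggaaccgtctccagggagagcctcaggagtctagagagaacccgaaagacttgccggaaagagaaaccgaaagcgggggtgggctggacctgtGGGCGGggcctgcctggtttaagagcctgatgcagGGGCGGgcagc
A match is a description of the letters and not a binding site.

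Wide rows were more numerous in the IL-4 library by a ratio of 2.13, against 1.37 for all autosomal rows. Of the 5355 merged regions, 1532 were wide in both libraries (28.6%, 27.4 to 29.8%). Another 3154 were wide in the IL-4 library alone (58.9%, 57.6 to 60.2%), and 669 in the untreated library alone (12.5%, 11.6 to 13.4%). With the IL-4 list shortened to the length of the untreated list by its p-values, 4674 IL-4 wide rows were left. IL-4 wide rows had a median −log10 q of 16.3, against 3.51 for all IL-4 rows, so this cut spared them by construction. It therefore tells nothing about why they were more numerous.

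A region wide in 1 library was seldom absent from the other. Of the untreated wide rows, 2193 (99.6%) overlapped a row of the IL-4 list, where 62.9% of all untreated rows did. Of the IL-4 wide rows, 4475 (95.4%) overlapped an untreated row, where 45.6% of all IL-4 rows did. Longer rows overlap more by their length, and the share rose with width in steps, from 47.9% at 200 to 299 bp to 99.7% at 1500 bp and over in the untreated list. Among the 3154 regions wide in the IL-4 library alone, the untreated list had no row at 215, 1 narrower row at 1982 and several rows at 957. The widest untreated row there had a median of 610 bp (quartiles 428 and 826 bp) and the IL-4 row one of 1133.5 bp. Among the 669 regions wide in the untreated library alone, the IL-4 list had no row at 9, 1 row at 410 and several at 250, with a median widest row of 764 bp. The larger number of wide regions in the IL-4 library therefore lay mostly over stretches that the untreated list held as shorter or split rows. In the 1532 regions wide in both, the median widths were 1203 bp untreated and 1274 bp with IL-4. The IL-4 row was the wider in 980 and the untreated row in 543, and the median difference was 37 bp.

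**Figure D1:**
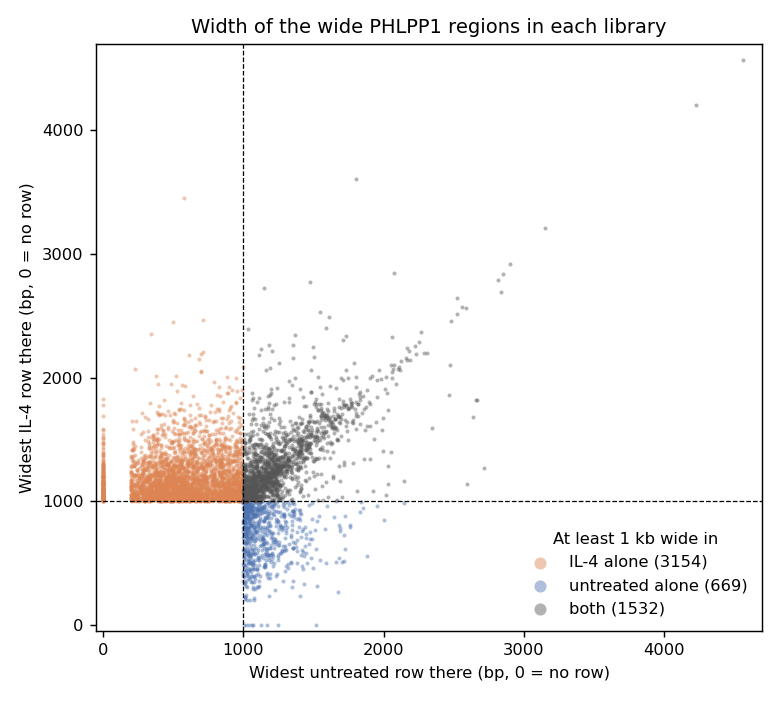
Width in bp of the widest untreated row (horizontal axis) and the widest IL-4 row (vertical axis) at each of the 5355 wide regions, 1 point per region, with 0 for no row and dashed lines at 1000 bp. The 3154 points wide only with IL-4 fill the upper left, the 669 wide only untreated the lower right.

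The 1000 bp limit cut through a smooth range. Just inside it, at 1000 to 1009 bp, the untreated list held 93 rows with a median fold of 3.14, and 30.1% lay at a gene end. Just outside, at 990 to 999 bp, it held 106 rows with a median fold of 3.39 and 34.0% at a gene end. The IL-4 list held 205 rows just inside (median fold 3.27, 30.7% at a gene end) and 188 just outside (3.20 and 32.4%). The rows on either side of the limit were thus alike in these measures.

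Fold here is the authors' enrichment of the pileup at the summit over the caller's background for the same library, with no scaling from library to library. Pileup is the number of DNA fragments stacked at the summit, recovered from the fold and p that the authors deposited. Wide rows had a median fold of 3.39 in the untreated library and 3.50 with IL-4, against 2.15 and 2.19 over all autosomal rows. Their folds ran from 1.59 to 15.4 untreated and from 1.61 to 16.0 with IL-4. The median pileup was 56 fragments untreated and 70 with IL-4, against 33 and 39 over all rows. The median −log10 q was 12.3 and 16.3, against 2.62 and 3.51. Wide rows were therefore stronger than the typical row, but the highest folds of the lists, 41.8 and 42.2, belonged to rows under 1 kb.

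A gene end below means within 1 kb of either end of a protein-coding gene, since the RefSeq gene table used gives no strand. Of the untreated wide rows, 673 lay at a gene end (30.6%, against 8.57% of all untreated rows), 673 elsewhere inside a gene (30.6%, against 38.7%) and 856 outside genes (38.9%, against 52.7%). Of the IL-4 wide rows, 1563 lay at a gene end (33.3%, against 8.88% of all IL-4 rows), 1551 inside (33.1%, against 42.3%) and 1576 outside (33.6%, against 48.8%). A row of 1 kb reaches a window more easily than a row of 300 bp. With only the summit counted, which has no length, 27.8% of untreated and 29.9% of IL-4 wide rows lay at a gene end. Summits of other rows were not counted this way, so these shares have no like share over all rows beside them.

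The share at gene ends climbed with width and then dropped. In the untreated list it was 4.88% at 200 to 299 bp, 18.3% at 500 to 749 bp, 32.1% at 1000 to 1499 bp and 20.7% at 1500 bp and over. In the IL-4 list the same classes gave 4.99%, 15.2%, 33.8% and 29.9%. The fall in the widest class covered 304 untreated and 581 IL-4 rows.

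**Figure D2:**
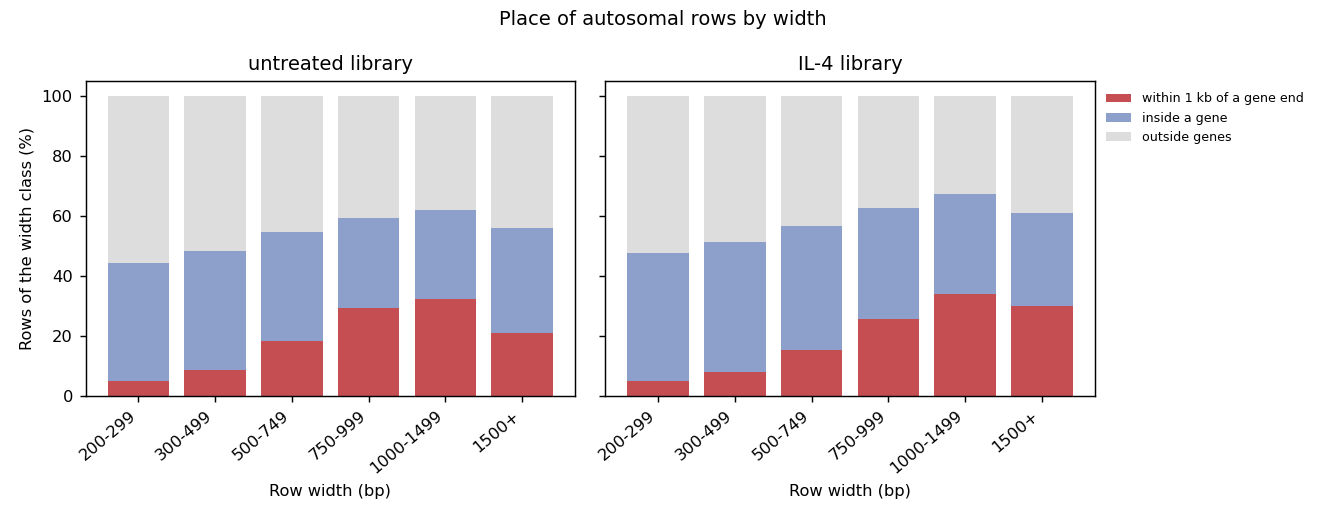
Share in percent (vertical axis) of the autosomal rows of each width class in bp (horizontal axis) that lay within 1 kb of a protein-coding gene end, elsewhere inside a gene or outside genes, for each library. The gene-end share is highest at 1000 to 1499 bp, at 32.1% untreated and 33.8% with IL-4.

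The 3 states differed in place. Regions wide in both libraries lay at gene ends in 546 of 1532 cases (35.6%, 33.2 to 38.1%), and those wide in the IL-4 library alone in 1018 of 3154 (32.3%, 30.6 to 33.9%). Regions wide in the untreated library alone did so in 133 of 669 (19.9%, 16.9 to 23.1%), while 330 of them (49.3%) lay outside genes. Of those 330, 141 (42.7%, 37.3 to 48.3%) were over 100 kb from any protein-coding gene. The same held for 215 of the 1052 IL-4-alone regions outside genes (20.4%, 18.0 to 23.0%) and for 152 of 522 wide in both (29.1%, 25.3 to 33.2%). These intervals cover counting error only and not the spread between libraries.

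The pileup in the IL-4 library was compared with that in the untreated library region by region. The constant background, which grows with depth and fragment length, was 13.9 fragments untreated and 15.9 with IL-4, a ratio of 1.14. The depth in reads is not known here. Among all untreated rows that overlapped an IL-4 row, 68.4% had a pileup ratio above 1.14. At gene ends the share was 92.8% for such rows of 500 to 999 bp and 88.8% for such rows under 1 kb. Among regions wide in both libraries, the median pileup at gene ends was 76.5 fragments untreated and 125.5 with IL-4, with a median ratio of 1.63 (quartiles 1.46 and 1.80), and 96.7% of the 546 were above 1.14. Inside genes the median ratio was 1.35 and outside genes 1.22, with medians of 57 against 81 and 54 against 69.5 fragments. The ratio of 1.14 leaves out how the caller's background differed around each region, which the fold takes in. For regions wide in both, median folds at gene ends were 4.76 untreated and 5.99 with IL-4. Inside genes they were 3.35 and 3.74, and outside genes 3.21 and 3.38. Regions wide in the IL-4 library alone gave 1.64 at gene ends, 1.51 inside and 1.37 outside.

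Regions wide in the untreated library alone also had the larger IL-4 pileup at gene ends. There the median was 71 fragments untreated and 106 with IL-4, a ratio of 1.58, although the IL-4 rows were the narrower ones by definition. Outside genes the ratio was 1.08, below that of the constant backgrounds. Width and height at the summit thus moved apart at gene ends, which held 133 of the 669 regions. Of the 330 outside genes, 322 had an IL-4 row, and 38.2% of these had a ratio above 1.14. Median folds outside genes were 2.68 untreated and 2.55 with IL-4. The order of places was not particular to wide regions: untreated rows of 500 to 999 bp gave 1.61 at gene ends, 1.29 inside and 1.19 outside.

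**Figure D3:**
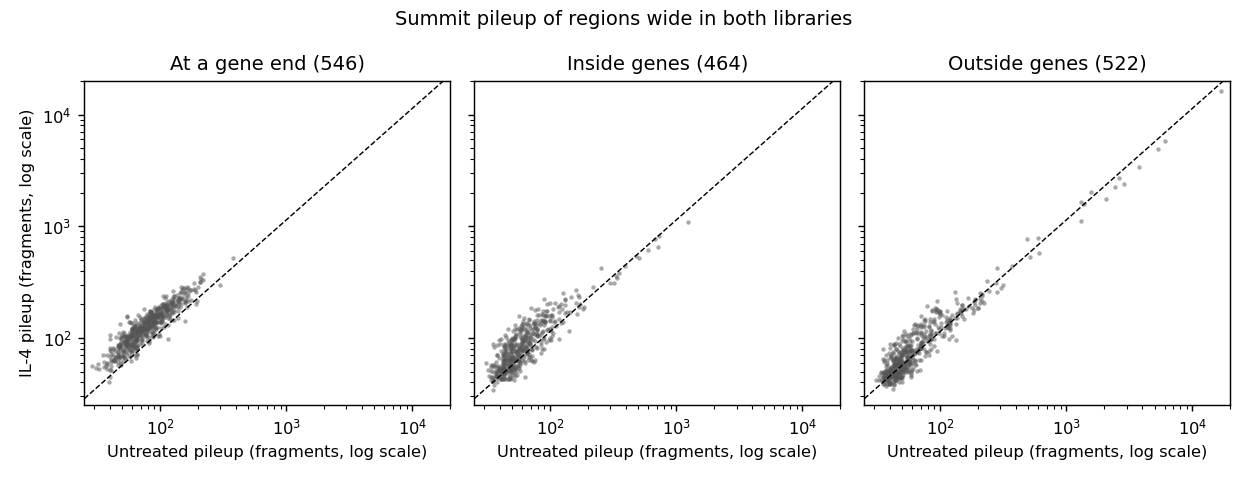
Summit pileup in fragments of the 1532 regions wide in both libraries, untreated (horizontal) against IL-4 (vertical), both on log scales, in 3 panels by place, 1 point per region. The dashed line marks the ratio of the constant backgrounds, 1.14, and 96.7% of the gene-end regions lie above it. Of gene-end untreated rows of 500 to 999 bp that overlapped an IL-4 row, not drawn, 92.8% were above it.

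Some wide regions stood on a high local background, the caller's estimate from the stretch around the region. At 262 merged regions (4.89%) it was more than 2 times the constant background in at least 1 library, and 165 of these were wide in both. Among wide rows the share was 5.45% untreated and 4.82% with IL-4, against 1.01% and 1% of all rows. Of the 262, 124 lay outside genes. Without such rows, an alternative chosen after the data were seen, 2082 untreated and 4464 IL-4 wide rows were left, of which 31.6% and 33.9% lay at a gene end. The gene list counts below then stayed as given, except that immediate early genes had 7 in place of 8.

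The widest regions of all were of this kind. The widest lay at chr1:24611595-24616165, 23673 bp from Col19a1, a collagen gene. It was 4560 bp untreated and 4571 bp with IL-4, with pileups of 2885 and 2401 fragments on local backgrounds 67.3 and 50.8 times the constant, so that its folds were only 3.08 and 2.98. The next lay at chr17:39843044-39847276, 103244 bp from Esp38, a gene of the exocrine-gland secreted peptide family. It was 4229 and 4205 bp wide, with folds of 2.57 and 2.73 on backgrounds 44.0 and 46.8 times the constant. A region inside Sfi1, a gene for a centrosome protein, was 2816 and 2791 bp wide with folds of 1.71 and 1.68 on backgrounds about 30.6 and 30.8 times the constant. These widths were close to equal in both libraries. How uniquely reads were placed at these regions was not tested.

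Other very wide regions had lower backgrounds and differed in length. A region inside Kif27, a kinesin gene, was a row of 3457 bp with IL-4, where the untreated list held 5 rows of at most 578 bp, and its folds were 2.65 untreated and 2.60 with IL-4. A region 38325 bp from Orc5, a gene of the origin recognition complex, was 1800 bp untreated in the widest of 3 rows and 3611 bp with IL-4. Inside Nr3c1, which encodes the glucocorticoid receptor, the widest of 3 untreated rows had 1149 bp and the IL-4 row 2722 bp, with folds of 4.76 and 4.81. Inside Edem3, which acts on misfolded glycoproteins in the endoplasmic reticulum, the widths were 2071 and 2844 bp and the folds 2.82 and 3.24. In these 4 regions 1 long IL-4 row stood where the untreated list had several rows.

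The rest of the 15 widest regions lay at Gm20783 (3151 and 3214 bp), inside Eppk1 (2903 and 2920 bp), Actr3b (2852 and 2842 bp) and Sox5 (2840 and 2696 bp), and near Vmn1r238, Vmn2r129, AY761185 and Lrrc7. Eppk1 encodes epiplakin, Actr3b an actin-related protein and Sox5 a transcription factor. Vmn1r238 and Vmn2r129 are vomeronasal receptor genes, which belong to large families with close copies, and how uniquely reads were placed near them was not tested. Near Vmn2r129, AY761185 and Lrrc7 the untreated row was the longer, at 2714 against 1270 bp, 2669 against 1820 bp and 2656 against 1822 bp. The local background exceeded 2 times the constant in at least 1 library at or near Gm20783, Eppk1, Sox5, Vmn1r238 and Vmn2r129. The highest was 2.91 times, near Vmn1r238 in the untreated library.

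The highest untreated folds among regions wide in both libraries were also partly on raised background. The region with the highest, 17084 bp from Vmn2r129, had folds of 15.4 untreated and 12.2 with IL-4. A region 21051 bp from Ly6c2, a surface antigen gene, had 14.9 and 16.0 on backgrounds 6.57 and 6.12 times the constant. A region inside Smo, which encodes the Hedgehog transducer Smoothened, had 13.0 and 13.1 on backgrounds of 6.77 and 5.23 times. The most extreme lay at chr2:98666241-98667364, 1034569 bp from Lrrc4c, with folds of 12.0 and 12.1 and pileups of 16836 and 16334 fragments on backgrounds 101 and 84.8 times the constant. Read placement was not tested there either. Regions near Tmem125, inside Gm2977 and near Insig1, a sterol-sensing gene, had untreated folds of 12.3, 12.3 and 11.6. The Tmem125 region stood on backgrounds 15.3 and 14.1 times the constant. Those at Gm2977 were 1.87 and 1.70 times, and those near Insig1 1.27 and 1.33 times.

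Only 3 of these 10 regions lay at a gene end, and these had the 3 highest pileup ratios of the 10. At Amz2, an archaemetzincin protease gene whose promoter is shown above, the pileup was 219 fragments untreated and 377 with IL-4, with folds of 10.6 and 10.7 and widths of 1077 and 1139 bp. At Malt1, the paracaspase of NF-kB signalling, it was 217 and 327 fragments, with folds of 10.4 and 11.4. At Gpr157, an orphan receptor gene also shown above, it was 166 and 215 fragments, with folds of 10.3 and 9.46. The ratios were 1.72, 1.51 and 1.30, and the 7 others ran from 0.883 to 1.16. The Aasdhppt promoter lay under a region nearest to Kbtbd3, 1109 and 1314 bp wide, with folds of 10.1 and 11.0.

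Wide regions were next set against transcription starts whose strand is known. RefSeq promoters gave a start for 16457 of the 20665 autosomal protein-coding genes, and none on chromosome 18. A start was covered by 1343 wide regions: 465 wide in both libraries, 777 wide only with IL-4 and 101 wide only untreated. In 191 of them (14.2%, 12.4 to 16.2%) the covered starts were on both strands, as at divergent gene pairs.

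Rows that covered 1 start reached out to both sides of it. The 403 untreated wide rows extended a median of 606 bp upstream and 552 bp downstream of the start. The 926 IL-4 wide rows extended 551 bp upstream and 643.5 bp downstream, so the longer side was the transcribed one in this library only. The summit lay a median of 115 bp upstream of the start untreated and 88 bp upstream with IL-4, and in 72.2% and 69.8% of rows it was upstream. For rows of 500 to 999 bp the summit was 66 and 49 bp upstream, and the reach was 346 and 304 bp untreated and 337 and 321 bp with IL-4.

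**Figure D4:**
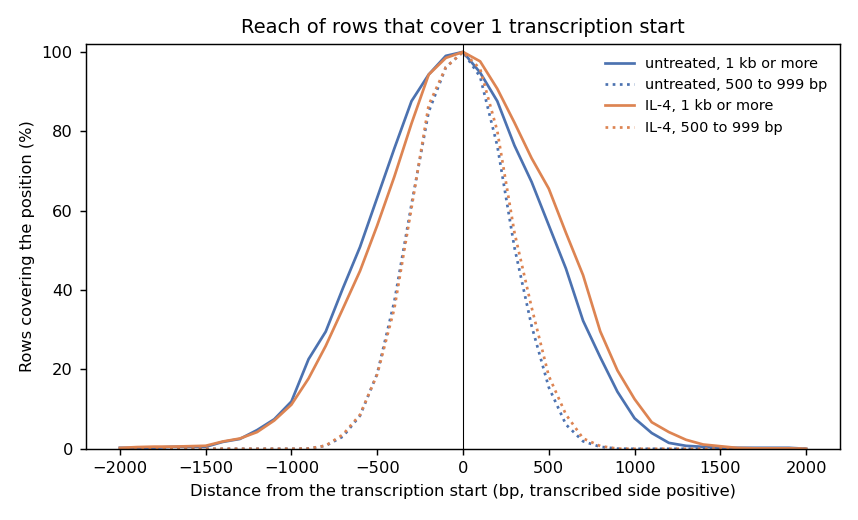
Share in percent of rows covering each position (vertical axis) by distance in bp from the covered transcription start, transcribed side positive (horizontal axis), for rows of 1 kb or more and of 500 to 999 bp in each library. At 500 bp downstream 65.6% of IL-4 and 56.3% of untreated wide rows cover the position, and at 500 bp upstream 56.3% and 63.3% do.

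The same side stood out when the rows of the libraries were compared pair by pair at starts with 1 row in each list. At 415 regions wide in the IL-4 library alone, the IL-4 row passed the untreated row by a median of 85 bp upstream and 216 bp downstream. The downstream extension was the longer in 271 of them (65.3%, 60.5 to 69.9%). At 313 regions wide in both, the medians were 30 and 17 bp, and 47.3% (41.6 to 53.0%) were longer downstream. At 46 regions wide in the untreated library alone the IL-4 row was shorter by a median of 2.5 bp upstream and 133 bp downstream. The 4809 pairs of rows that were narrower in both lists gave 40 and 46 bp, with 50.2% longer downstream. Among those narrower pairs whose IL-4 row was over 1.5 times as wide as the untreated row, 1166 in all, 57.8% (54.9 to 60.7%) were longer downstream. The regions were chosen by the same widths that give these extensions, and in both groups wide in 1 library alone the wide row was the longer mainly downstream, so the side is a description of the chosen regions.

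Promoters under wide regions were rich in G, C and CpG. Of 20085 RefSeq promoters, taken from 250 bases before to 50 after the start, 1852 overlapped a wide region in either library. Their median GC content was 64.3% and their median CpG count was 0.816 of that expected from base composition. Promoters with narrower rows only, 9444 in all, had 60.0% and 0.741, and the 8789 with no row had 49.7% and 0.275. The states were alike: 64.7% and 0.823 where wide in both, 64.0% and 0.807 where wide only with IL-4, and 64.7% and 0.824 where wide only untreated.

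The motifs searched were not equally frequent in these classes. GGGCGG on either strand was in 74.1% of promoters under wide regions, in 60.8% of those with narrower rows, in 26.6% of those without a row and in 47.0% of all. TATAAA, the core of the TATA box, was in 4.64%, 7.21%, 20.3% and 12.7%. CCAAT, the box that NF-Y binds, was in 40.9% under wide regions and 38.1% of all. CCGGAAG, an ETS-type site, was in 17.2% under wide regions, 18.6% with narrower rows, 3.53% without a row and 11.9% of all. The AP-1-like TGANTCA was in 4.27% and 7.06% of all, the STAT-like pair TTC and GAA with 4 bases between in 4.64% and 6.39%, and GAGGAAGT, the letters PU.1 favours, in 3.62% and 3.18%. All were searched on both strands, CCGGAAG and GAGGAAGT share the letters GGAAG, and no motif was compared at matched GC content.

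Wide regions reached 3387 of the 20665 autosomal protein-coding genes (16.4%), inside the gene or within 1 kb of it. Of these, 1168 had regions wide in both libraries, 1943 had only IL-4 wide regions and 276 only untreated ones, so 6.99% of genes had an untreated and 15.1% an IL-4 wide region. A wide region lay at an end of 2049 genes (9.92%), or 4.1% with untreated and 9.15% with IL-4 wide regions. A row of any width lay at an end of 60.1% of genes untreated and 73.3% with IL-4. The lists below were taken up with earlier results of these data known, so their counts describe and test nothing. Genes reached at an end had a median length of 23.4 kb, genes reached only elsewhere one of 84.5 kb, and genes not reached one of 15.1 kb, and a longer gene has more room for a region.

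**Figure D5:**
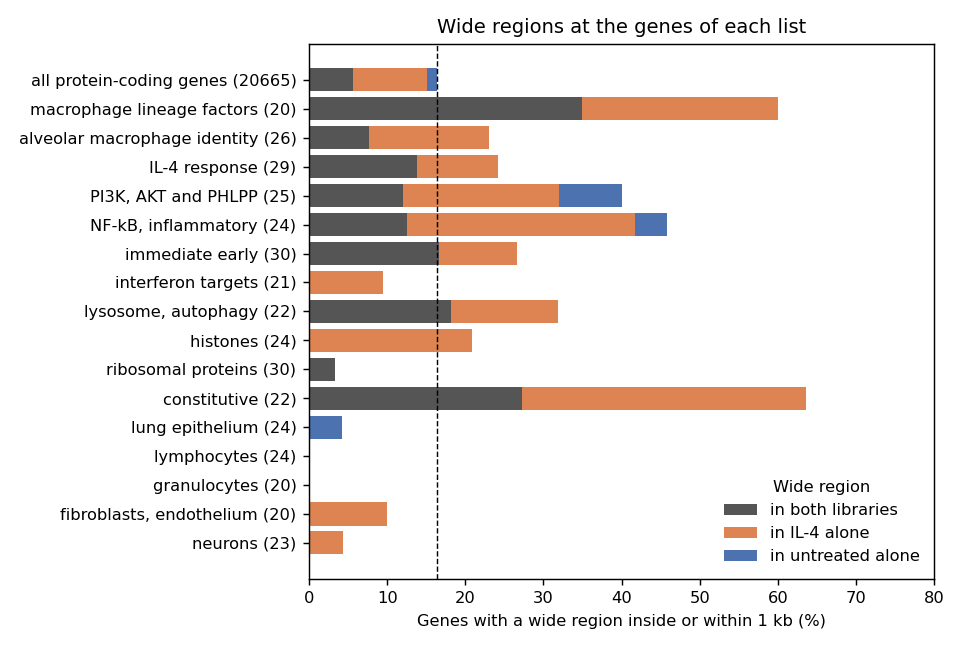
Percent of the genes of each list (number of genes in brackets) with a wide region inside or within 1 kb (horizontal axis), split by the libraries in which the gene's regions were wide, with a dashed line at the 16.4% of all protein-coding genes. Constitutive genes and macrophage lineage factors reach furthest, with 14 of 22 and 12 of 20 genes.

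Transcription factors of the macrophage lineage had wide regions at 12 of 20 genes (60%, against 16.4% of all genes). Of the 12, 7 had them in both libraries and 5 in the IL-4 library alone. At a gene end 8 of the 20 (40%) had one, where 9.92% of all genes did. The list's median gene length was 20.6 kb, against 17.5 kb for all genes. Constitutive genes, expressed in all cells, came as high, at 14 of 22. Any IL-4 row, of whatever width, lay at an end of 18 of the 20 lineage genes and 19 of the 22 constitutive ones. Among all genes 73.3% had one. Of the constitutive genes, the chaperone gene Hspa8 had 1122 bp untreated and 1096 bp with IL-4, with folds of 6.45 and 8.24 and pileups of 111 and 196 fragments.

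Spi1, which encodes PU.1, the master factor of the lineage, had a pair of wide regions. The region at the gene's lower end coordinate, chr2:91082439-91083596, was 1134 bp untreated and 1040 bp with IL-4, with folds of 4.25 and 4.42 and pileups of 85 and 170 fragments. The other, inside the gene at chr2:91111849-91112955, was wide in the IL-4 library alone, 1107 bp against 646 bp in the wider of 2 untreated rows, with folds of 3.02 untreated and 3.83 with IL-4 and pileups of 44 and 70 fragments. The region at the gene end was thus the narrower but taller with IL-4, and the other both longer and taller.

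The C/EBP factors, partners of PU.1, differed between themselves. At Cebpb, chr2:167687500-167689139, the widths were 1635 and 1638 bp with folds of 3.17 untreated and 4.31 with IL-4 and pileups of 62 and 126 fragments. At Cebpa, chr7:35118112-35119461, the untreated list held 2 rows of at most 777 bp and the IL-4 list 1 row of 1350 bp, while the folds were 5.80 untreated and 5.60 with IL-4. The printed Cebpb promoter holds 4 GC boxes, and that of Cebpa, at the same size, holds 0.

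Repressors were among the others wide in both libraries. Bhlhe40 and Bhlhe41, repressors that support self-renewal of alveolar macrophages, had widths of 1556 and 1756 bp and of 1055 and 1560 bp. Bach2, a repressor known in lymphocytes and alveolar macrophages, had 1905 bp untreated and 1786 bp with IL-4 at chr4:32249616-32251520, where the fold was 3.83 and 5.50 and the pileup 65 and 137 fragments. A second Bach2 region was wide in the IL-4 library alone, at 1197 against 733 bp. Fli1, an ETS factor, had 1159 and 1285 bp.

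The 5 lineage genes wide in the IL-4 library alone were Cebpa, Mitf, Runx1, Etv6 and Irf8. Inside Mitf, a factor of lysosome and osteoclast genes, the width was 570 bp untreated and 1167 bp with IL-4, the fold 4.43 and 7.88 and the pileup 65 and 155 fragments. Inside Runx1, a factor of blood cell formation, it was 838 and 1460 bp, with pileups of 42 and 100 fragments. At Etv6, an ETS repressor, it was 506 and 1349 bp. At Irf8, a factor of monocyte development, the untreated list had no row and the IL-4 row of 1031 bp had a fold of 2.19, a low value among wide rows.

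Genes of alveolar macrophage identity had wide regions at 6 of 26 (23.1%, against 16.4% of all genes), 2 in both libraries and 4 in the IL-4 library alone. All 6 were at a gene end, where 9.92% of all genes had one. Any IL-4 row lay at an end of 25 of the 26, against 73.3% of all genes. At Pparg, the nuclear receptor required for alveolar macrophages, the region chr6:115360923-115362426 was 1504 bp with IL-4, where the untreated list had 2 rows of at most 358 bp, and the folds were 2.28 and 3.32. Csf2ra, a receptor chain for GM-CSF, had 836 bp untreated and 1854 bp with IL-4 with folds of 3.80 and 3.66. Cidec, a lipid droplet protein, had 654 and 1672 bp with folds of 3.55 and 4.23. Abcg1, a cholesterol exporter, had no untreated row and 1147 bp with IL-4 at a fold of 2.41.

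The pair wide in both libraries were a receptor and a protease. Tgfbr2, a receptor for TGF-beta, which maintains alveolar macrophages, had 1102 and 1028 bp. Ctsd, the lysosomal protease cathepsin D, had 1900 bp untreated and 1608 bp with IL-4, with folds of 2.94 and 2.43, in a region also within reach of Ifitm10, so that it cannot be given to either gene.

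Genes of the IL-4 response had wide regions at 7 of 29 (24.1%, against 16.4% of all genes), 4 in both libraries and 3 in the IL-4 library alone. Socs1, which inhibits JAK kinases, had at chr16:10784950-10786706 a widest untreated row of 1074 bp and an IL-4 row of 1757 bp. Its pileup was 55 fragments untreated and 157 with IL-4, a ratio of 2.85 and the highest of the 546 gene-end regions wide in both libraries, and its folds were 2.99 and 4.72. Cish, another inhibitor of cytokine receptor signalling, had 2 untreated rows of at most 382 bp and an IL-4 row of 1548 bp, with pileups of 38 and 82 fragments. Jak1, a kinase of the IL-4 receptor, had a region inside the gene wide in both libraries (1411 and 1526 bp) and one at its start wide with IL-4 (455 and 1169 bp).

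The list also held an adaptor, an enzyme, a coactivator and a lectin. Irs2, an adaptor that links the IL-4 receptor to PI3K, had 1149 and 1155 bp with folds of 4.63 and 5.07. Ptgs1, a cyclooxygenase, had 1104 and 1232 bp with folds of 3.49 and 4.48. Ppargc1b, a coactivator in alternative activation, had a pair of regions wide in the IL-4 library alone, at 1080 and 1181 bp, over untreated rows of at most 832 and 652 bp. Clec10a, a lectin marker of alternative activation, had no untreated row and an IL-4 row of 1083 bp. Stat6, the factor that IL-4 activates, had no wide region, with widest rows of 464 bp untreated and 851 bp with IL-4. Arg1, a classical target, had no untreated row and 1 IL-4 row of 255 bp.

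The pathway of PI3K, AKT and PHLPP had wide regions at 10 of its 25 listed genes (40%, against 16.4% of all genes). Of the 10, 3 had them in both libraries, 5 with IL-4 only and 2 untreated only. The list's median gene length was 81.8 kb, against 17.5 kb for all genes, and a longer gene has more room for a region. At a gene end 8 of the 25 (32%) had one, where 9.92% of all genes did. Phlpp1 itself had no wide region: its widest row, at its lower end coordinate, was 703 bp untreated and 702 bp with IL-4, with folds of 8.65 and 10.3, above the upper quartile of the wide rows (4.60 and 5.13).

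Kinases and lipid enzymes upstream made up part of the list. Pik3cg, the gamma catalytic subunit of PI3K, had no untreated row and 1040 bp with IL-4 at a fold of 3.02. Pik3r1, the regulatory subunit, had 1103 bp untreated and 976 bp with IL-4, but folds of 6.22 and 7.80 and pileups of 92 and 146 fragments. Inpp5d, the lipid phosphatase SHIP1, had 2 untreated rows of at most 432 bp and an IL-4 row of 1821 bp, with pileups of 34 and 84 fragments.

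AKT and its targets filled the rest. Akt2, an AKT isoform, had 317 bp untreated and 1277 bp with IL-4, with folds of 2.62 and 3.92. Gsk3b, a kinase that AKT inhibits, had 1545 and 1422 bp, folds of 6.26 and 7.86 and pileups of 111 and 193 fragments. Foxo1, a factor that AKT keeps out of the nucleus, had 1764 and 1828 bp inside the gene. Sgk1, an AKT-related kinase, had 1179 and 1038 bp with folds of 5.42 and 5.53. Rheb, the activator of mTORC1, had 1084 and 897 bp with folds of 7.04 and 8.16, and Rptor, a subunit of mTORC1, had 227 and 1373 bp. Pik3r1 and Rheb thus count as wide in the untreated library alone though their IL-4 rows were the taller.

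NF-kB and inflammatory genes had wide regions at 11 of 24 (45.8%, against 16.4% of all genes). At a gene end 10 of the 24 (41.7%) had one, where 9.92% of all genes did. The subunit genes Rela, Relb, Rel and Nfkb1 were among the 11. Relb had 1251 bp untreated and 1339 bp with IL-4, with folds of 7.57 and 8.31 and pileups of 155 and 252 fragments. Nfkb1 had 1209 bp untreated against 2 IL-4 rows of at most 743 bp, yet folds of 3.55 and 6.11. Nfkbiz and the inhibitors Nfkbia, Nfkbie and Tnfaip3 had regions wide only with IL-4. The chemokine gene Cxcl2 had 1228 and 1268 bp with folds of 7.78 and 6.44.

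Immediate early genes had wide regions at 8 of 30 (26.7%, against 16.4% of all genes). Jun, Egr1, Atf4, Dusp1 and Maff had them in both libraries, and Dusp5, Fosl2 and Zfp36 in the IL-4 library alone. Jun, a subunit of AP-1, had 1656 and 1663 bp with folds of 4.88 and 5.54, and Egr1, a growth factor-induced factor, had 1474 bp in each. Lysosome and autophagy genes had 7 of 22 (31.8%). Among them was Tfeb, the master factor of lysosomal genes, with 1200 and 1905 bp at its start. Interferon targets had 2 of 21 (9.52%), Irf9 and Oasl1, both inside the gene and in the IL-4 library alone.

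Histone genes came near the share of all genes, 16.4%, and ribosomal protein genes below it. Of 24 replication-dependent histone genes, 5 had a wide region, all in the IL-4 library alone and all in 2 regions of the histone cluster on chromosome 13. The region shared by H1f1, H3c1 and H4c1 was 399 bp untreated and 1769 bp with IL-4, and the one shared by H2ac6 and H2bc4 was 810 and 1168 bp. Of 30 ribosomal protein genes, only Rpl7 had one, in a region shared with Rdh10, although an IL-4 row of some width lay at an end of all 30. Both families have close copies elsewhere in the genome, and how uniquely reads were placed at them was not tested.

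Markers of other cell types had wide regions less often than the 16.4% of all genes. Lung epithelium had 1 of 24 (Pdpn, inside the gene, 1222 bp untreated and 920 bp with IL-4), fibroblasts and endothelium 2 of 20 (Cdh5 and Pecam1) and neurons 1 of 23 (Grin1). Lymphocyte markers had 0 of 24 and granulocyte markers 0 of 20. None of these 4 regions lay at a gene end, where 9.92% of all genes had one. At the 1 kb window an IL-4 row of any width lay at an end of 17 of 24 lymphocyte and 13 of 20 granulocyte genes. Among all genes 73.3% had one. Median gene lengths were 5.48 kb for lung epithelium, 5.56 kb for granulocytes and 13.5 kb for lymphocytes. They were 38.4 kb for fibroblasts and endothelium and 40.7 kb for neurons, against 17.5 kb for all genes. Peak lists hold no expression, so the labelled cell type was checked only by these counts. Gene length was not matched, so the counts do not settle it.

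Csf1r, the receptor for the macrophage growth factor CSF1, was outside the lists and named for its role. Its region inside the gene at chr18:61107615-61109103 was 1489 bp with IL-4 at a fold of 5.14. The strongest untreated row of the gene, within that stretch, was 457 bp at a fold of 3.49, and its widest untreated row, at the gene end, was 747 bp.

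Some wide regions were strongest in their gain or loss of length. The 8 regions with the largest loss were wide in the untreated library alone and lay inside Slc6a17, Zfp407 and Cyp2c38 or 140400 to 880856 bp from Stpg2, Smad2, Trim52, Nlrp1b and Cdh18. Inside Slc6a17, a transporter of neurons, the untreated row was 1521 bp with a fold of 2.22 and no IL-4 row. Near Smad2 the untreated row was 1249 bp with a fold of 2.02 and no IL-4 row. Inside Cyp2c38, a cytochrome P450 gene with close copies beside it, the rows were 1525 and at most 314 bp, with folds of 3.89 and 2.55. None of the 8 lay at a gene end, and their untreated folds ran from 2.02 to 3.89.

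The 8 longest IL-4 rows with no untreated row lay at Apol11a, Vtn, Hoxa3 and Slc39a2 and outside genes near Aqp3, Cpeb4, Emsy and Plce1. Near Aqp3, a water and glycerol channel gene, the row was 1824 bp with a fold of 2.95. At Apol11a, an apolipoprotein L gene, it was 1775 bp with a fold of 2.43, and at Vtn, which encodes vitronectin, 1686 bp with a fold of 2.49. At Hoxa3, a homeobox gene, it was 1586 bp with a fold of 2.49, and at Slc39a2, a zinc transporter gene, 1544 bp with a fold of 2.58. All 8 had folds from 2.31 to 2.95, under the IL-4 median of 3.50 for wide rows.

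The pileup ratios at the extremes, looked up after the values were seen, reached further than the folds of these. Of 5131 regions with a row in both lists, the highest was inside Mad1l1, a spindle checkpoint gene, with 28 fragments untreated and 133 with IL-4, a ratio of 4.75 and widths of 217 and 1428 bp. Inside Stk24, a kinase gene, it was 45 and 172 fragments. At Slc7a2, a transporter of arginine, the pileup was 39 and 130 fragments, with widths of 490 and 1205 bp and folds of 2.68 and 7.77. The lowest was inside Fank1, with 54 fragments untreated and 32 with IL-4, a ratio of 0.593. Next to Socs1, the gene-end regions wide in both with the highest ratios were at Exd1 and Chp1 (2.78), Plekhf1 (2.75) and Klhl24 (2.65).

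Wide regions were spread over the genome, but not evenly. The median gap between neighbours was 205 kb (quartiles 69.8 and 485 kb), and 71 of 5336 gaps were under 5 kb. More than 1 wide region lay at 399 genes, and 5 or more at 9: Gm38510 with 7, Sfi1 and Tex14 with 6, and Alk, Camta1, Clvs1, Gm21154, Ncoa2 and Ptprn2 with 5. These 9 genes span 71.5 to 802 kb, against a median of 17.5 kb for all genes. Syk, the kinase of Fc receptor signalling, spans 66.2 kb and had 4, all wide in the IL-4 library alone, as did Mapre2, Rin2 and Sorcs2.

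Small RNA genes lay under wide rows more often than under all rows. An annotated snoRNA gene was under 1.09% of untreated and 0.682% of IL-4 wide rows, against 0.0999% and 0.0714% of all rows. An snRNA gene was under 0.545% and 0.490%, against 0.0212% and 0.0217%, and a tRNA gene under 0.318% and 0.341%, against 0.0497% and 0.0581%. Wide rows had median widths of 1170 and 1169 bp and all rows 300 and 327 bp, and how far this length accounts for the difference was not tested. In all, 46 of 1286 snoRNA genes, 24 of 931 snRNA genes and 32 of 391 tRNA genes were overlapped.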

How the data were processed

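CUT&Tag with an antibody against PHLPP1 was run on 1 untreated and 1 IL-4 library of mouse alveolar macrophages, per the labels' protocols. The authors deposited 1 peak list per library, on mm10. Bowtie 0.12.8, MACS2 2.2.7.1 and DiffBind are named, per the submitters' processing notes, with no roles; the sources used here do not give settings, filters or depth in reads. The deposited fold is a ratio of summit pileup to the caller's background, neither scaled between libraries. The deposited lists also give −log10 p and −log10 q, a score (not used) and start, end and summit offset in bp.

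Because MACS2 adds 1 to pileup and background before dividing, fold and p give back both. Recovered pileups were whole within 0.05 for 100% of rows. Rows of at least 1000 bp on 19 autosomes were merged over both lists when they shared 1 bp, and the widest and the strongest row of each list describe a region. Genes and starts came from RefSeq GRCm38.p6 tables, and promoters were 250 bases before to 50 after the start. Exon, intron and UTR positions were not analysed here. Of 392 entries in 16 gene lists, 384 matched, 24 by an older symbol. The members and lists were chosen with earlier results of these data known. With 1 library per group no test was run, and intervals are exact Clopper-Pearson 95% intervals that cover counting error only.

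Regions were named by a rule: the 15 widest, the 10 of highest untreated fold among those wide in both, the 8 with the largest loss of width, the 8 IL-4 rows over the narrowest untreated row, members of 4 lists, 3 promoters and 6 fixed genes; other genes were picked with their values known. Some genes that the rule names are not reported here. Width, window, overlap, q, list length, background and joined rows were varied. The computation was tested on simulated lists and used numpy 2.4.6, pandas 2.3.3, scipy 1.17.1 and matplotlib 3.10.9 under Python 3.11.15.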

Additional observations from a re-analysis of the deposited data

Results flagged for a closer look

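Wide rows also occurred outside the autosomes, in data that the comparisons above do not use. On X and Y the untreated list held 19 wide rows of 879, with 15 on X and 4 on Y. The IL-4 list held 28 of 1049, with 26 on X and 2 on Y. No control library stood beside them.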

How the results depend on the processing

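No paired analysis was possible because each group had 1 library and no test was run. At a width limit of 800 bp the lists held 5365 untreated and 10953 IL-4 wide rows, and at 1500 bp 304 and 581. At 800 bp 30.1% of regions were wide in both and 57.2% in the IL-4 library alone; at 1500 bp 32.1% and 54.6%. Median folds, untreated and IL-4, were 3.18 and 3.20 at 800 bp and 3.46 and 3.69 at 1500 bp, and median pileups 51 and 62, and 63 and 80. The shares at a gene end, untreated and IL-4, were 30.7% and 29.9% at 800 bp, the reverse of the order at 1 kb, and 20.7% and 29.9% at 1500 bp. Windows of 500 bp gave 28.6% and 30.6%, windows of 5 kb 39.8% and 44.1%, and summits alone 27.8% and 29.9%. Wide regions reached 31.9% of genes at 800 bp, 2.14% at 1500 bp and 9.92% with gene ends only. Lineage factors with a wide region numbered 14 at 800 bp and 4 at 1500 bp. NF-kB and inflammatory genes with one numbered 16 at 800 bp and 0 at 1500 bp. At 800 bp 3541 promoters were covered (GC 63.7%), at 1500 bp 232 (CpG 0.825, GGGCGG 69.8%), and promoters covered whole gave 65.3%, 0.828 and 76.5%. Gaps were 84.4 kb at 800 bp and 2162 kb at 1500 bp, where the summit lay at 46.8% and 48.1% of the width. The cause of these shifts was not tested beyond the changed selection itself. Without rows on more than 2 times the constant background, chosen for state, place and lists after seeing the data, 26.4% were wide in both and 13.8% in the untreated library alone, with pileups of 54 and 67.5. Over all settings tried, 45 recomputed main values moved beyond their interval (counts by over 1.5 times) and 32 did not. At 800 bp lymphocyte and neuron markers counted 5 each, so the counts of 0 and 1 rest on the 1 kb limit. Depth in reads and the missing replicates limit every comparison between the libraries.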
